A study of Mus musculus with 7 samples.

Results

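The 10 genes described here encode the NF-kappa B subunits and the IkB proteins that bind them, and were taken by symbol from the 56691 genes counted in mouse liver. All 10 symbols were found, each with a single gene identifier: 5 Rel subunits (Nfkb1, Nfkb2, Rel, Rela and Relb), 3 classical IkB proteins (Nfkbia, Nfkbib and Nfkbie) and 2 nuclear IkB proteins (Nfkbiz and Bcl3). Livers were from male C57BL/6J mice, bought at 8 weeks of age and kept for 2 weeks before treatment. The LPS group of 3 mice was given lipopolysaccharide, a bacterial outer membrane component, intraperitoneally at 10 mg/kg and killed 24 h later, and the control group had 4 mice. What the control mice were injected with is not given in the sources used here. The comparison asks how the genes of the pathway differ in liver RNA a day after LPS, and whether inhibitor genes and subunit genes differ alike.

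NF-kappa B is a family of dimeric transcription factors built from Rel subunits. In resting cells the classical IkB proteins hold the dimers in the cytoplasm, and after Toll-like receptors such as the LPS receptor are engaged, the IkB kinase complex marks these inhibitors for destruction and the dimers enter the nucleus. Several genes that the dimers switch on encode IkB proteins and subunits of NF-kappa B itself, which forms feedback loops, and nuclear IkB proteins adjust which targets respond. In liver, the pathway is known for its part in the acute phase response and in protecting hepatocytes from death induced by tumor necrosis factor.

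Total counts were 14991022, 15096573, 15721944 and 18584140 in control replicates 1 to 4. In LPS replicates 1 to 3 they were 20500391, 17095607 and 17821331. Levels are given as CPM, counts per 1000000 of the library size scaled by TMM, a method that corrects for library composition, and 3 counts correspond to between 0.138 and 0.212 CPM. The tissue label was checked with the hepatocyte gene Alb, which encodes albumin and had 46978 ± 11470.1 CPM (SD, n = 4) in control mice and 24665 ± 25.9 CPM (SD, n = 3) in LPS mice. LPS replicates 2 and 3 stood closer to each other than any other pair of mice did within a group: the SD of their log2 count ratio was 0.10 over 1729 well-counted genes, against 0.29 to 0.58 in the other 8 pairs. Both were kept as separate mice, as labelled. Mitochondrial genes took 23.7%, 14.6%, 7.48% and 8.96% of the counts in control replicates 1 to 4 and 6.45%, 3.83% and 3.94% in LPS replicates 1 to 3, and with these genes left out of the fit the same 7 members were called as below.

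Both nuclear IkB genes, all 3 classical IkB genes and 2 of the 5 Rel subunit genes were higher in LPS mice, whereas Nfkb1, Rela and Rel did not pass the test. Calls were made with edgeR's quasi-likelihood test at a Benjamini-Hochberg adjusted p below 0.05 over 13683 genes tested. All 10 members passed the filter on low counts, and 7 of them were called higher, with TMM, RLE factors or mitochondrial genes left out, 6 with no scaling factor or with the replicate number as a block, and 5 with LPS replicates 2 and 3 summed or without control replicate 2, control replicate 4, LPS replicate 2 or LPS replicate 3. Among all genes tested, 13.3% were called higher. Of the 10 members, 0 were called lower with edgeR, 0 were lower at an unadjusted p below 0.05 and 0 were called lower with DESeq2, whereas 13% of all genes were called lower. With a log2 fold change above 1 required as well, 6 members were called higher, and 7.81% of all genes met that rule. In the 7 members called higher, every LPS mouse was above every control mouse, a pattern that 18.1% of all genes tested had, while every LPS mouse was below every control mouse in 0 members and in 17.4% of all genes. The median log2 fold change was 1.23 over the members and -0.01 over all genes tested. With no scaling factor 1350 of all genes were called higher and 2057 lower, against 1825 and 1773 with TMM. The median of all genes was then -0.13, and relative to it the members lay between 0.13 for Rela and 2.22 for Nfkbiz. Since whole liver was sequenced, fewer cells of a type and less RNA per cell cannot be told apart, and the same holds for more cells and more RNA per cell.

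**Figure D1:**
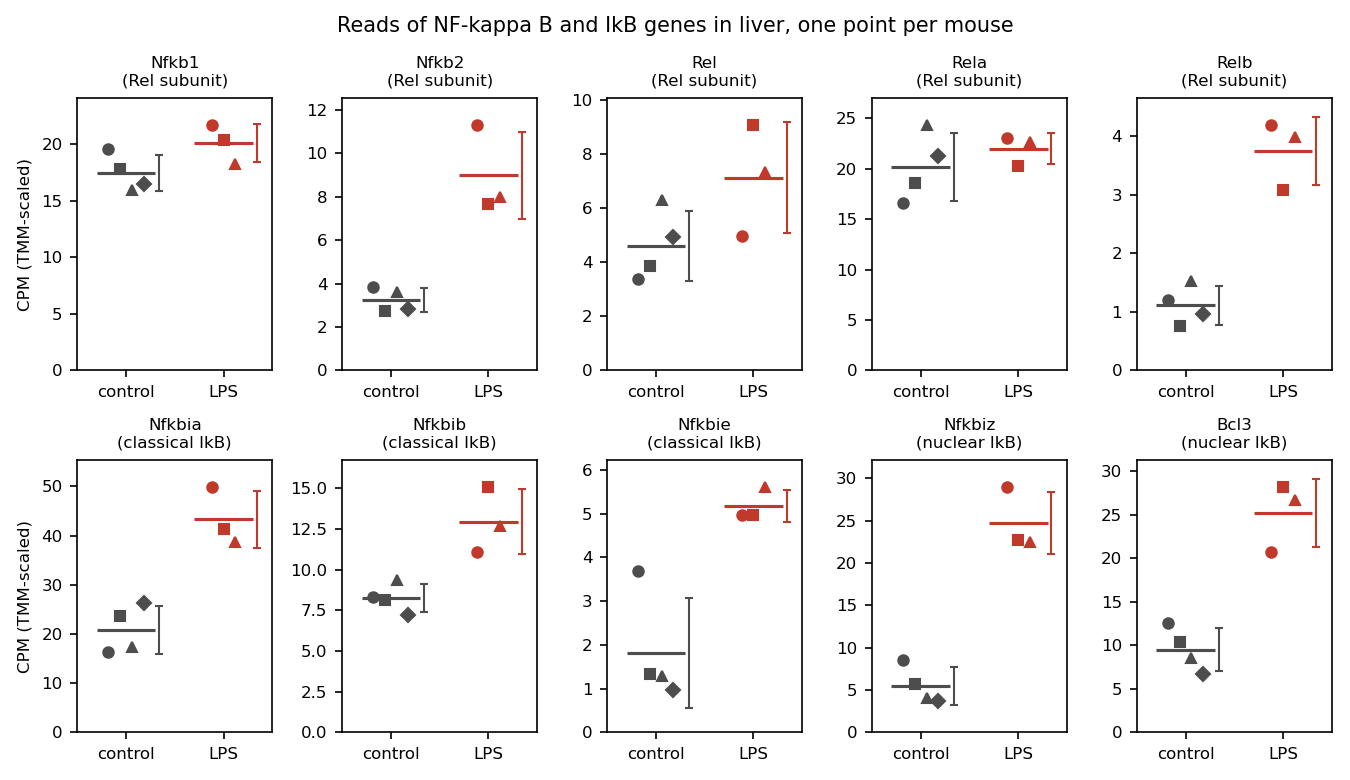
Each panel plots the CPM of a member gene in every mouse on a linear axis from 0, with control mice in grey and LPS mice in red; the marker shape gives the replicate number, the horizontal line is the group mean and the bar beside it is 1 SD (n = 4 and n = 3). In 7 panels all LPS mice lie above all control mice, and in the panels of Nfkb1, Rel and Rela the groups overlap.

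The nuclear IkB gene Nfkbiz (ENSMUSG00000035356) had the highest log2 fold change of the 10. It encodes IkB zeta, a coactivator that binds NF-kappa B in the nucleus and is needed for a subset of inflammatory genes. Nfkbiz had 8.56, 5.68, 4.03 and 3.73 CPM in control replicates 1 to 4 and 28.9, 22.7 and 22.5 CPM in LPS replicates 1 to 3. The groups did not overlap, and control replicate 1 stood nearest to the LPS mice. Its mean rose from 5.50 ± 2.21 CPM (SD, n = 4) in control mice to 24.7 ± 3.68 CPM (SD, n = 3), 4.53-fold in the fit, with a log2 fold change of 2.18 (SE 0.26, 95% interval 1.61 to 2.75, edgeR quasi-likelihood test with Benjamini-Hochberg adjusted p = 5.58e-05).

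Bcl3 (ENSMUSG00000053175) encodes a nuclear IkB protein that binds homodimers of the products of Nfkb1 and Nfkb2. Its levels were 12.5, 10.4, 8.49 and 6.68 CPM in control replicates 1 to 4 and 20.7, 28.2 and 26.7 CPM in LPS replicates 1 to 3. All LPS mice were above all control mice, with LPS replicate 1 the lowest of the LPS group. The mean was 9.51 ± 2.51 CPM (SD, n = 4) in control mice and 25.2 ± 3.96 CPM (SD, n = 3) in LPS mice, for a log2 fold change of 1.41 (SE 0.21, 95% interval 0.95 to 1.87, edgeR quasi-likelihood adjusted p = 0.000362). Its exons overlap 161 bases of Gm16175 on the opposite strand, which had 2 counts in all control mice together and 0 in LPS mice. A further nuclear IkB gene, Nfkbid, which is not among the 10, was not tested because of low counts, which were 6, 3, 0 and 3 in control mice and 13, 4 and 9 in LPS mice. Summed over Nfkbiz and Bcl3, control replicates 1 to 4 had 21.1, 16.0, 12.5 and 10.4 CPM and LPS replicates 1 to 3 had 49.6, 50.8 and 49.2 CPM, so the LPS mice lay close together and the control mice were spread.

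Among the classical inhibitors, Nfkbia (ENSMUSG00000021025) encodes IkB alpha, which is degraded within minutes of pathway activation and is resynthesised as a direct NF-kappa B target. Control replicates 1 to 4 had 16.3, 23.6, 17.3 and 26.4 CPM of Nfkbia and LPS replicates 1 to 3 had 49.9, 41.3 and 38.8 CPM. The groups did not overlap, and LPS replicate 1 was the highest. The mean went from 20.9 ± 4.86 CPM (SD, n = 4) in control mice to 43.3 ± 5.81 CPM (SD, n = 3), for a log2 fold change of 1.05 (SE 0.19, 95% interval 0.65 to 1.45, edgeR quasi-likelihood adjusted p = 0.00113), or 2.07-fold.

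Nfkbie (ENSMUSG00000023947), which encodes IkB epsilon, was a low gene with 52, 21, 21 and 20 counts in control replicates 1 to 4 and 108, 77 and 90 counts in LPS replicates 1 to 3. These counts correspond to 3.68, 1.33, 1.28 and 0.968 CPM in control mice and to 4.98, 4.96 and 5.60 CPM in LPS mice. Control replicate 1 stood far above the other control mice but below every LPS mouse, and the LPS mice lay close together. The means were 1.81 ± 1.25 CPM (SD, n = 4) and 5.18 ± 0.366 CPM (SD, n = 3), for a log2 fold change of 1.53 (SE 0.43, 95% interval 0.60 to 2.47, edgeR quasi-likelihood adjusted p = 0.0196). Without control replicate 1 the log2 fold change was 2.12 (edgeR adjusted p = 0.000712). The call was lost without control replicate 2 (edgeR adjusted p = 0.0628), control replicate 4 (0.0503), LPS replicate 2 (0.0517) or LPS replicate 3 (0.0699), and with LPS replicates 2 and 3 summed into 1 sample (0.0529), and the log2 fold changes of these 5 fits were 1.31 to 1.56.

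The smallest difference among the 7 called members was that of Nfkbib (ENSMUSG00000030595), the gene of IkB beta, an inhibitor that holds dimers of Rela and Rel. It had 8.35, 8.14, 9.35 and 7.21 CPM in control replicates 1 to 4 and 11.1, 15.1 and 12.7 CPM in LPS replicates 1 to 3. Every LPS mouse was above every control mouse, with LPS replicate 1 nearest to the controls. The mean rose from 8.26 ± 0.878 CPM (SD, n = 4) in control mice to 13 ± 2.0 CPM (SD, n = 3), 1.57-fold in the fit, with a log2 fold change of 0.65 (SE 0.19, 95% interval 0.24 to 1.06, edgeR quasi-likelihood adjusted p = 0.0226). Its call did not hold with no scaling factor (edgeR adjusted p = 0.0714), with the replicate number as a block (0.0774), with LPS replicates 2 and 3 summed (0.0794), or without control replicate 2 (0.0510), control replicate 4 (0.0605), LPS replicate 2 (0.129) or LPS replicate 3 (0.0679), over log2 fold changes of 0.52 to 0.75 in all settings. Exons of Nfkbib overlap 42 bases of Sirt2 on the opposite strand in GENCODE M21, which had 2162 counts in all control mice together and 1451 in all LPS mice together, and 314 bases of Ccer2, which had 0 counts in every mouse, and how the counting used strand is not given in the sources used here. Summed over the 3 classical inhibitors, control replicates 1 to 4 had 28.4, 33.1, 27.9 and 34.5 CPM and LPS replicates 1 to 3 had 65.9, 61.3 and 57.1 CPM, with no overlap.

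Of the Rel subunits, the called genes were the members of the alternative pathway. Nfkb2 (ENSMUSG00000025225) encodes a precursor that is an inhibitor when whole and is processed to the subunit p52. Nfkb2 had 3.82, 2.71, 3.61 and 2.81 CPM in control replicates 1 to 4 and 11.3, 7.67 and 7.97 CPM in LPS replicates 1 to 3. The groups did not overlap, and LPS replicate 1 was the highest. The mean rose 2.78-fold in the fit, from 3.24 ± 0.559 CPM (SD, n = 4) in control mice to 8.98 ± 2.01 CPM (SD, n = 3), with a log2 fold change of 1.48 (SE 0.25, 95% interval 0.92 to 2.03, edgeR quasi-likelihood adjusted p = 0.000935). Its exons overlap those of Psd by 299 bases on the opposite strand, and Psd had 42 counts in all control mice together and 65 in all LPS mice together. They also overlap 531 bases of AC114539.1 on that strand, which had 130 and 97 counts.

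Relb (ENSMUSG00000002983) encodes the activating partner of p52. It had 17, 12, 25 and 20 counts in control replicates 1 to 4 and 91, 48 and 64 counts in LPS replicates 1 to 3. In CPM these were 1.20, 0.757, 1.53 and 0.968 in control mice and 4.19, 3.09 and 3.98 in LPS mice. All LPS mice were above all control mice, and the lowest LPS mouse was replicate 2. The means were 1.11 ± 0.330 CPM (SD, n = 4) and 3.76 ± 0.585 CPM (SD, n = 3), for a log2 fold change of 1.75 (SE 0.38, 95% interval 0.92 to 2.58, edgeR quasi-likelihood adjusted p = 0.00466), or 3.37-fold.

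The 3 other subunits belong to the classical dimers and were not called. Rela (ENSMUSG00000024927) encodes p65, the main activating subunit of the classical dimer. Its values were 16.6, 18.6, 24.3 and 21.2 CPM in control replicates 1 to 4 and 23.0, 20.2 and 22.7 CPM in LPS replicates 1 to 3. The groups overlapped, and the highest value of all belonged to a control mouse, replicate 3. With 20.2 ± 3.37 CPM (SD, n = 4) and 22.0 ± 1.53 CPM (SD, n = 3), the log2 fold change was 0.12 (SE 0.16, 95% interval -0.23 to 0.48, edgeR quasi-likelihood adjusted p = 0.634), so the interval spans folds from 0.852 to 1.39.

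Nfkb1 (ENSMUSG00000028163) encodes the precursor of p50, the usual partner of p65. It had 19.6, 17.8, 16.0 and 16.5 CPM in control replicates 1 to 4 and 21.7, 20.4 and 18.3 CPM in LPS replicates 1 to 3. Only control replicate 1 reached into the range of the LPS mice, where it lay above LPS replicate 3. The means were 17.5 ± 1.60 CPM (SD, n = 4) and 20.1 ± 1.71 CPM (SD, n = 3), for a log2 fold change of 0.21 (SE 0.15, 95% interval -0.12 to 0.53, edgeR quasi-likelihood adjusted p = 0.354), with folds from 0.919 to 1.45 in the interval.

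Rel (ENSMUSG00000020275) encodes c-Rel, a subunit known mainly from lymphoid and myeloid cells. Control replicates 1 to 4 had 3.40, 3.85, 6.29 and 4.94 CPM of Rel and LPS replicates 1 to 3 had 4.98, 9.08 and 7.35 CPM. LPS replicate 1 lay within the control range, and the other LPS mice were above all controls. The means were 4.62 ± 1.29 CPM (SD, n = 4) and 7.14 ± 2.06 CPM (SD, n = 3), for a log2 fold change of 0.62 (SE 0.29, 95% interval -0.01 to 1.25, edgeR quasi-likelihood adjusted p = 0.143). The upper end of that interval is a 2.38-fold difference, so the values neither place Rel with the called genes nor show that it was unchanged. With each mouse left out in turn, its log2 fold change ranged from 0.41 without LPS replicate 2 (edgeR adjusted p = 0.457) to 0.83 without LPS replicate 1 (0.0683).

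**Figure D2:**
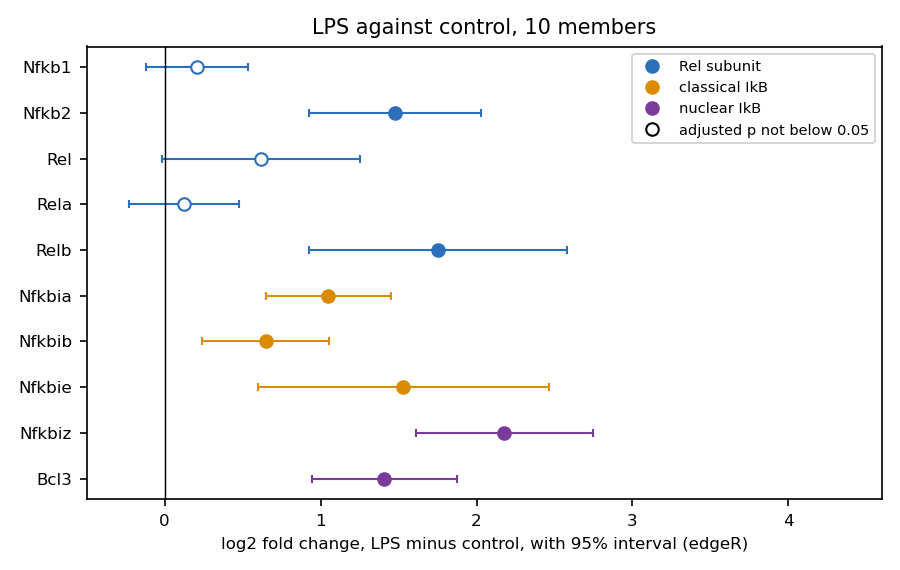
Points are the log2 fold changes of the 10 members, LPS minus control, from edgeR's quasi-likelihood fit over 4 control and 3 LPS mice, the bars are 95% intervals and the colors give the class. The intervals of the 7 filled points lie above 0, and those of Nfkb1, Rel and Rela, drawn as open points, include 0.

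By class, the median log2 fold change was 0.62 over the 5 Rel subunits, 1.05 over the 3 classical IkB genes and 1.79 over the 2 nuclear IkB genes, beside -0.01 over all genes tested. These medians describe few genes and were not tested against each other. Summed over the Rel subunits, control replicates 1 to 4 had 44.6, 43.7, 51.8 and 46.5 CPM and LPS replicates 1 to 3 had 65.2, 60.4 and 60.3 CPM. The sum over all 10 members was 94.0, 92.8, 92.2 and 91.4 CPM in control mice and 181, 173 and 167 CPM in LPS mice. The control mice therefore lay within a narrow range for the sum, although single members such as Nfkbie and Nfkbiz were spread among them.

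The balance between members was compared inside each library with log2 ratios of counts of 2 genes, which do not depend on library scaling. Apart from Nfkbiz to Nfkbia, each ratio sets a member called higher over one not called, on the same counts as those calls. The pairs were chosen with earlier results of these data known. The ratios therefore describe the balance and are not support separate from the calls. Differences between the groups were tested with a two-sided exact permutation test over the 35 splits of 7 mice, whose smallest p is 0.0286, and adjusted over the 5 ratios. These p values count LPS replicates 2 and 3 as separate mice, as labelled, and with both taken as 1 sample the test could not reach 0.05. The log2 ratio of Nfkbia to Rela, the inhibitor to its subunit, was -0.02, 0.35, -0.49 and 0.31 in control replicates 1 to 4 and 1.11, 1.03 and 0.78 in LPS replicates 1 to 3. It was higher in 3 of 3 LPS mice than in every control mouse, by 0.94 on the log2 scale (exact permutation p = 0.0286, adjusted 0.0357). The ratio of Bcl3 to Nfkb1 was -0.65, -0.78, -0.91 and -1.31 in control mice and -0.07, 0.47 and 0.55 in LPS mice. The groups again did not overlap, with a difference of 1.23 (exact permutation p = 0.0286, adjusted 0.0357).

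Nfkb1 and Nfkb2 both encode precursors that hold an IkB-like part, and their ratio also separated the groups. The log2 ratio of Nfkb2 to Nfkb1 was -2.36, -2.71, -2.15 and -2.56 in control replicates 1 to 4 and -0.94, -1.41 and -1.20 in LPS replicates 1 to 3. All LPS mice were higher, by 1.26 in the mean (exact permutation p = 0.0286, adjusted 0.0357). For Relb against Rela, the activating subunits of the alternative and the classical dimers, the log2 ratio was -3.78, -4.61, -3.99 and -4.46 in control mice and -2.46, -2.71 and -2.51 in LPS mice. This was the largest difference of the 5 ratios, 1.65 (exact permutation p = 0.0286, adjusted 0.0357), with no overlap. The ratio of Nfkbiz to Nfkbia, a nuclear against a classical inhibitor, was -0.93, -2.06, -2.10 and -2.82 in control mice and -0.78, -0.86 and -0.79 in LPS mice. LPS mice were tightly grouped and above all controls, but control replicate 1 was close to them, and the difference of 1.17 did not pass the test (exact permutation p = 0.0571, adjusted 0.0571).

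The order of the members was read on CPM per kilobase of exon, since longer transcripts collect more reads. In control mice, Nfkbia was highest at 13.2 ± 3.08 CPM per kilobase (SD, n = 4), and its lowest mouse was above the highest value of Rela, at 7.43 ± 1.24. Next came Bcl3 at 5.14 ± 1.35, Nfkb1 at 4.24 ± 0.389 and Nfkbib at 3.88 ± 0.413 CPM per kilobase, each of which overlapped its neighbour in the order, as did Rela and Bcl3. A gap without overlap separated Nfkbib from Nfkbiz at 1.33 ± 0.535 CPM per kilobase. The lowest levels per kilobase were those of Nfkb2, Nfkbie, Rel and Relb, between 0.767 ± 0.132 for Nfkb2 and 0.504 ± 0.149 for Relb, and neighbours among them overlapped.

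In LPS mice Nfkbia was again highest, at 27.4 ± 3.68 CPM per kilobase (SD, n = 3), and Bcl3 at 13.6 ± 2.14 stood above Rela at 8.09 ± 0.562, with no overlap between neighbours. Nfkbib and Nfkbiz followed at 6.09 ± 0.939 and 5.97 ± 0.889 CPM per kilobase and overlapped each other. Nfkb1 had a lower mean, 4.88 ± 0.416, but overlapped Nfkbib. Nfkbie and Nfkb2 had nearly equal levels per kilobase, 2.13 ± 0.150 and 2.13 ± 0.476, and Relb at 1.70 ± 0.265 overlapped Nfkb2. Rel was the lowest of the 10 at 0.956 ± 0.276 CPM per kilobase, without overlap with Relb.

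LPS replicate 1 differed from the other LPS mice in a direction that depended on the gene. Its CPM divided by the mean of LPS replicates 2 and 3 was 1.44 for Nfkb2, 1.28 for Nfkbiz and 1.25 for Nfkbia, but 0.800 for Nfkbib, 0.754 for Bcl3 and 0.606 for Rel. Without LPS replicate 1 the same 7 members were called higher, with log2 fold changes of 1.28 for Nfkb2, 2.05 for Nfkbiz, 0.94 for Nfkbia and 1.54 for Bcl3.

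The IkB kinases, kinases upstream of them and partner subunits of both were given by a list of 16 genes, all of which were tested. Of these, 2 were called higher and 1 lower. The 12.5% called higher lie near the 13.3% of all genes, and the median log2 fold change was 0.32 beside -0.01 over all genes tested. Ikbke, which encodes an IkB kinase related kinase that is itself inducible, had 229, 219, 195 and 188 counts in control mice and 813, 623 and 764 counts in LPS mice. It rose from 12.8 ± 3.01 CPM (SD, n = 4) in control mice to 41.7 ± 5.23 CPM (SD, n = 3), for a log2 fold change of 1.71 (SE 0.19, edgeR adjusted p = 2.93e-05), with no overlap. Ripk2, the kinase downstream of the NOD receptors, rose from 5.44 ± 1.19 to 12.6 ± 2.46 CPM, for a log2 fold change of 1.21 (SE 0.23, edgeR adjusted p = 0.00211). Chuk, which encodes the kinase IKK alpha of the IkB kinase complex, was lower, at 105 ± 5.05 CPM in LPS mice and 151 ± 20.0 CPM in control mice, for a log2 fold change of -0.53 (SE 0.14, edgeR adjusted p = 0.0173). The fall of Chuk was not called without LPS replicate 2 (edgeR adjusted p = 0.0773) or LPS replicate 3 (0.0936), or with both summed (0.0888), at log2 fold changes of -0.52, -0.49 and -0.50. When single mice were left out, the edgeR adjusted p of Chuk ranged from 0.0143 to 0.0936. The partners of IKK alpha, Ikbkb and Ikbkg, had log2 fold changes of 0.37 and -0.0026 and were not called. Without control replicate 3, 4 genes of this list were called higher.

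Of 18 ubiquitin ligases and adaptors, which relay the signal from receptors and tag IkB proteins for degradation, 3 were called higher and 1 lower, with a median log2 fold change of 0.17. The 16.7% called higher lie near the 13.3% of all genes, and with no scaling factor or with mitochondrial genes left out 1 was called higher and 2 lower. Birc2, which encodes a ligase that restrains the alternative pathway, rose from 23.9 ± 3.29 CPM (SD, n = 4) in control mice to 37.9 ± 2.06 CPM (SD, n = 3), for a log2 fold change of 0.67 (SE 0.15, edgeR adjusted p = 0.00499). Traf3, an adaptor that acts with Birc2, and Ube2n, the conjugating enzyme for signalling ubiquitin chains, had log2 fold changes of 0.63 and 0.43 (edgeR adjusted p = 0.0481 and 0.0456). With mitochondrial genes left out these were 0.62 and 0.41 (edgeR adjusted p = 0.0531 and 0.0504). With no scaling factor they were 0.52 and 0.31 (edgeR adjusted p = 0.114 and 0.237). The call of Traf3 held in 1 of 7 fits that left out a mouse, the fit without control replicate 1 (edgeR adjusted p = 0.0186), and its adjusted p was 0.122, 0.0873 and 0.0871 without control replicates 2, 3 and 4 and 0.109, 0.0585 and 0.182 without LPS replicates 1, 2 and 3. That of Ube2n held in 1 of 7, the fit without control replicate 3 (edgeR adjusted p = 0.0163), and its adjusted p was 0.0841, 0.114 and 0.0666 without control replicates 1, 2 and 4 and 0.101, 0.109 and 0.146 without LPS replicates 1, 2 and 3. Over these 7 fits the log2 fold changes were 0.54 to 0.78 for Traf3 and 0.35 to 0.51 for Ube2n. Traf5, another adaptor, was lower in LPS mice, at 1.98 ± 0.389 CPM against 4.36 ± 0.734 CPM, and the call was not kept without LPS replicate 3 (edgeR adjusted p = 0.0196 with all mice and 0.0845 without it, at log2 fold changes of -1.13 and -0.99). Without control replicate 2, control replicate 4 or any single LPS mouse, 1 gene of this list was called higher.

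Of 17 negative regulators, whose products end or restrain NF-kappa B signalling, 16 were tested and 5 were called higher, with a median log2 fold change of 0.25. These are 31.2% of the genes tested from the list, beside 13.3% of all genes. With at least 10 counts required in every sample 3 were called higher, beside 1444 of all 11307 genes tested under that rule. It takes Tnfaip3 and Irak3 out of the test, because each had fewer than 10 counts in some control mouse. With edgeR 0 were called lower, 3 were lower at an unadjusted p below 0.05, and DESeq2 called 0 lower. Tnfaip3, which encodes a ubiquitin-editing enzyme that stops the pathway, had 4, 9, 19 and 16 counts in control replicates 1 to 4 and 483, 351 and 360 counts in LPS replicates 1 to 3. Its mean went from 0.697 ± 0.369 CPM (SD, n = 4) in control mice to 22.4 ± 0.177 CPM (SD, n = 3), for a log2 fold change of 4.97 (SE 0.30, edgeR adjusted p = 1.57e-07), and the LPS mice hardly differed from each other. Irak3, an inhibitory member of the receptor-associated kinases, rose from 1.03 ± 0.547 to 14.7 ± 2.85 CPM, for a log2 fold change of 3.85 (SE 0.36, edgeR adjusted p = 6.34e-06). The RNase gene Zc3h12a, whose product degrades cytokine transcripts, rose from 1.40 ± 0.613 to 7.48 ± 0.783 CPM, for a log2 fold change of 2.41 (SE 0.35, edgeR adjusted p = 0.000229). Tnip1, which encodes a ubiquitin-binding partner of the Tnfaip3 protein, rose from 6.52 ± 0.577 to 19.5 ± 3.69 CPM, for a log2 fold change of 1.58 (SE 0.19, edgeR adjusted p = 4.88e-05). The fifth called gene, N4bp1, lies outside the rule for named genes and is given after its value was seen, with a log2 fold change of 1.24. Tnip3 was not tested, with 6, 0, 2 and 0 counts in control mice and 90, 5 and 11 counts in LPS mice.

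Textbook target genes of NF-kappa B were given by a list of 38, of which 31 were tested, 21 were called higher and 1 was called lower, or 67.7% and 3.23%, beside 13.3% and 13% of all genes. The share called higher includes genes that passed the filter through the LPS mice, such as Csf3, with 0 counts in every control mouse. For such genes the call is largely set by the filter. With at least 10 counts required in every sample, 11 targets were called higher, beside 1444 of all 11307 genes tested under that rule. The rule takes targets low in control mice out of the test, so the 11 are not a share of the 31. The median log2 fold change of the 31 tested targets was 2.23, also with the 3 genes with no more than 3 counts in any control mouse set to their lower bound. That step could not move the median. The bounds, 11.3-fold for Tnf, 20.9-fold for Bcl2a1b and 7.30-fold for Csf3, all lie above the fold it stands for. Among called targets with a mean of at least 1 CPM over the 7 mice, the 4 largest log2 fold changes were those of Lcn2 at 9.73, Saa3 at 9.64, Il1rn at 6.53 and Cxcl1 at 5.96, which encode an iron-binding acute phase protein, a serum amyloid, the interleukin-1 receptor antagonist and a neutrophil chemokine. Il1rn had 19, 7, 21 and 27 counts in control mice and 1256, 1924 and 2020 counts in LPS mice, and LPS replicate 1 was the lowest of its group. Saa3 has close paralogs, and the counting of reads shared among paralogs is not given in the sources used here. Ccnd1, the gene of cyclin D1, was lower, at 4.28 ± 2.47 CPM (SD, n = 3) in LPS mice against 11.5 ± 0.558 CPM (SD, n = 4) in control mice, for a log2 fold change of -1.41 (SE 0.32, edgeR adjusted p = 0.00548), and without LPS replicate 1 it was -1.99. The 7 listed targets that were not tested, because of low counts, were Il6, Ccl20, Sele, Nos2, Ptgs2, Cd40 and Csf2.

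Most markers of neutrophils and monocytes were higher as well. Counts of called markers are read beside the 13.3% of all genes called higher and the 13% called lower. Of 10 neutrophil markers 8 were tested and all 8 were called higher. In 4 of the 8, no control mouse had more than 3 counts. These 4 passed the filter through the LPS mice, which largely sets their call. Cxcr2, with 0, 11, 0 and 8 counts in control mice, and S100a8, with 10, 7, 2 and 14, also needed the LPS mice to pass it. This count is therefore an exception and is not read against those shares. The summed level of the 10 markers was 5.24, 4.04, 1.65 and 2.95 CPM in control replicates 1 to 4 and 217, 160 and 160 CPM in LPS replicates 1 to 3. By mean CPM over all 7 mice S100a9 was first, through its LPS values, at 1.17 ± 0.647 CPM (SD, n = 4) in control mice and 82.9 ± 17.2 CPM (SD, n = 3) in LPS mice. In control mice Csf3r had a higher mean, 1.43 CPM. Ly6g and Ngp had 0 counts in every control mouse, which allows up to 0.145 to 0.212 CPM, and Ly6g had 7, 0 and 1 counts in LPS mice. Of 7 monocyte markers 5 were called higher, and their sum was 16.5, 12.6, 7.82 and 10.6 CPM in control mice and 87.4, 76.2 and 83.0 CPM in LPS mice, with Plac8 first by mean CPM over all mice. Chil3 and F13a1 of this list were also low in control mice, with 0, 5, 0 and 0 counts and 0, 2, 6 and 5 counts. Ly6c2 had 11, 4, 6 and 8 counts there and Ms4a4c 15, 6, 8 and 21. These called markers too needed the LPS mice to pass the filter, which in part sets their call. The monocyte count is therefore not read against those shares either. The part of neutrophils and monocytes in the rise of the 7 members was not tested.

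Kupffer cell and macrophage markers set LPS replicate 1 apart. Of these 10 markers 4 were called higher and 1 lower, and 0 of them were at 0 in all mice. Their summed level was 147, 206, 189 and 127 CPM in control replicates 1 to 4 and 718, 151 and 159 CPM in LPS replicates 1 to 3. By mean CPM over all 7 mice the first was Marco, a scavenger receptor of macrophages, through its LPS values, at 3.68 ± 1.54 CPM (SD, n = 4) in control mice and 181 ± 198 CPM (SD, n = 3) in LPS mice, with 8889, 1032 and 1054 counts in LPS replicates 1 to 3. Clec4f, a marker of resident Kupffer cells, was the marker called lower, with 671, 1107, 932 and 897 counts in control mice and 523, 85 and 117 counts in LPS mice. Without Marco, a sum added after the values were seen, the other 9 markers had 144, 200, 185 and 124 CPM in control mice and 308, 84.8 and 93.4 CPM in LPS mice, so for this sum LPS replicates 2 and 3 lay below every control mouse and LPS replicate 1 above, but single markers differed. Adgre1, which encodes F4/80, had 33, 78, 78 and 88 counts in control mice and 406, 134 and 163 in LPS mice, and it and C1qb were called higher without overlap (log2 fold changes 1.62 and 1.21, edgeR adjusted p = 0.00223 and 0.0115). C1qb had 1181, 326 and 324 counts in LPS replicates 1 to 3. Timd4, Cd5l and Vsig4 were not called, and for each of them LPS replicates 2 and 3 lay below every control mouse. In LPS replicates 1 to 3 Timd4 had 279, 1 and 10 counts, Cd5l 1644, 76 and 53, and Vsig4 236, 56 and 31. Control mice had 64, 72, 86 and 41 counts of Timd4, 341, 713, 656 and 536 of Cd5l, and 122, 192, 195 and 194 of Vsig4. The part of macrophage content in the members' values was not tested. Of 10 hepatocyte markers 2 were called higher and 3 lower, too few to set apart from the 13.3% and 13% of all genes. Alb was first by mean CPM over all mice. In the LPS group the mean of Trf, 25322.6 CPM, was above that of Alb. In LPS replicate 1, however, Trf had fewer counts than Alb, 453674 against 534699. The sum of the 10 markers was 76844.5, 77969, 108286 and 92829 CPM in control mice and 66791, 77938 and 78634.5 CPM in LPS mice. For this sum the groups overlapped. Without Alb, also added after the values were seen, the other 9 had 38886, 40192.9, 46600.4 and 42337.7 CPM in control mice and 42148.4, 53278.8 and 53941.4 CPM in LPS mice, with LPS replicates 2 and 3 above every control mouse. The part of hepatocyte content in the members' values was not tested.

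Genes whose pattern over the 7 libraries was closest to a member were found by the root mean square difference of centred log2 CPM, among 12367 genes, for the member of each class with the largest log2 fold change. For Relb they were Hyou1 at 0.19, Arl13b at 0.20 and Gstp2 at 0.21. Nfkbie was closest to Kctd17 at 0.16 and Bbs12 at 0.17, and then to Pik3cd at 0.27. Nfkbiz was closest to Slc11a1 at 0.17, Plac8 at 0.19 and Zbp1 at 0.20, of which Plac8 is also in the monocyte list above. Gstp2 has close paralogs, so its share of reads is uncertain. These differences describe 7 mice and were not tested.

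Since 7 members moved in the same direction, their promoters were searched for the kappa B consensus, the 10-base element that NF-kappa B dimers bind, on both strands of the 300 bases from 250 before to 50 after each RefSeq transcription start (GRCm38.p6). Of the 10 members 7 were matched by symbol, and Nfkb1, Relb and Nfkbiz are named only. A match was found in 5 of these 7 genes, or 7 of their 9 promoters, namely Nfkb2, Rel, Nfkbia, Nfkbie and Bcl3, and none in the windows of Rela and Nfkbib. Among all 32851 promoters of the same length 8.46% held a match, and among the 13088 promoters of tested genes 10.2% did. Rel held a match and was not called, while Nfkbib was called and held none in this window. Nfkb2 has 3 listed starts, and a match was found at each of them, though the match at the third is also 1 of those at the second. The 120 bases before the start are shown for 5 members, with the matches in capitals and overlapping matches joined, and 30 bases around the match for Bcl3, where it lies just after the start. Those of Nfkb2 span bases -39 to -29 and -11 to -2 relative to its first start (chr19:46304617-46304736, plus strand), that of Rel bases -92 to -82 (chr11:23770970-23771089, minus strand), that of Nfkbia bases -29 to -20 (chr12:55492648-55492767, minus strand), and that of Nfkbie bases -106 to -97 (chr17:45555580-45555699, plus strand). The match of Bcl3 covers bases 3 to 12 of the transcript (chr7:19822734-19822763, minus strand), and the stretch of Rela (chr19:5637421-5637540, plus strand) is shown for comparison. A match is a string of letters and does not show that a factor binds there.
Nfkb2: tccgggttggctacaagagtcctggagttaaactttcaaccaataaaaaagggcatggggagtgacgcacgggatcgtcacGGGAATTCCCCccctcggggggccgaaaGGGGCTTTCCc
Rel: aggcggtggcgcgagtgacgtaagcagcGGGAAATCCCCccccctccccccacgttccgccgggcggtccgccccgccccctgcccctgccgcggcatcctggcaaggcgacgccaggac
Nfkbia: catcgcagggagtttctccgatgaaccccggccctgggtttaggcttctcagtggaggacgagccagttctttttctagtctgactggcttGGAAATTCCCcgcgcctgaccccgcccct
Nfkbie: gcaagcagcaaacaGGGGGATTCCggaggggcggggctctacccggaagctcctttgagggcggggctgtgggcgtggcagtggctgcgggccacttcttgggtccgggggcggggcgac
Bcl3: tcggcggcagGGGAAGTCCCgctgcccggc
Rela: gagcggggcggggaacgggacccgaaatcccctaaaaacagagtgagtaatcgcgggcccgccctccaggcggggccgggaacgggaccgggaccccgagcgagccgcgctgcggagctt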

How the data were processed

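Liver RNA of 4 control and 3 LPS mice was read with strand-specific libraries from polyadenylated RNA on the MGISEQ2000 platform. The values the authors deposited are raw counts, integers per gene and mouse without normalization. The submitters' processing notes name cutadapt 1.9.1, HISAT2 2.2.1, HTSeq 0.6.1, DESeq2 1.34.0 and GRCm39, and the methods also name FPKM values from Cufflinks, not used here. The annotation, the strand setting and the handling of multimapping reads are not given in the sources used here. Liver of mice given sulforaphane was not analysed here.

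Genes were filtered with filterByExpr, scaled by TMM and fitted with condition as the only term in edgeR 4.0.16 (R 4.3.3), using the quasi-likelihood test with Benjamini-Hochberg adjustment over all 13683 genes tested. Calls required an adjusted p below 0.05. Standard errors were derived from the F statistic, and 95% intervals from its degrees of freedom. Within-library ratios were compared with the exact permutation test. Floors of 3 counts reflect counting error alone, because the reads carry no molecular identifiers and may be copies of the same molecule. The lower bound of a fold used 3 counts per control library.

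Exon lengths came from GENCODE M21 (GRCm38), matched by gene identifier, and promoters from RefSeq. No coordinates were converted between builds. The scripts were tested on simulated data.

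The members, gene lists and tests were chosen with earlier results of these data known. From each pathway list the text names up to 4 called genes with the largest and 2 with the most negative log2 fold change, at a mean of at least 1 CPM. The symbols Skp1a and Tf of the lists were read as Skp1 and Trf after the file was seen. Alternatives were DESeq2 1.42.0, RLE factors, no scaling factor, mitochondrial genes left out, a minimum of 10 counts in every sample, no filter, an absolute log2 fold change above 1 as well, the replicate number as a block, LPS replicates 2 and 3 summed, each mouse left out in turn, and 0.5 counts added for the ratios. One of the planned cell type marker lists is not reported here.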

Additional observations from a re-analysis of the deposited data

Results flagged for a closer look

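In 3 of the 40 sets of control values examined, 1 of the 4 control mice stood apart by a gap to its neighbour that, as a share of the whole range, was above Dixon's 95% critical value. Chance marks about 1 in 20 such sets. Nfkbie had 3.68 CPM in control replicate 1, with a gap of 0.868 of the range. Chuk had 181 CPM in its highest control mouse, replicate 3, with a gap of 0.839 of the range, and without that mouse its log2 fold change was -0.43 (edgeR adjusted p = 0.0281, range with each mouse left out 0.0143 to 0.0936). Il1rn had 0.442 CPM in its lowest control mouse, replicate 2, with a gap of 0.932 of the range.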

How the results depend on the processing

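In all 16 alternatives between 5 and 7 members were called higher and 0 lower, and no log2 fold change of a member changed sign. Nfkb2, Relb, Nfkbia, Nfkbiz and Bcl3 were called in all 15 alternative fits, Nfkbie in 10 and Nfkbib in 8, and Nfkb1, Rel and Rela in 0. Over all genes, 1290 to 1906 were called higher and 1146 to 1868 lower when single mice were left out, 1350 higher and 2057 lower with no scaling factor, and 2065 higher and 1967 lower with no filter. Among fits that left out a mouse, the lowest numbers of genes called lower, 1146 and 1159, came without LPS replicate 2 and without LPS replicate 3, against 1550 without LPS replicate 1. With a log2 fold change above 1 required as well, 1068 were higher and 1000 lower, which follows from the rule.

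Mice of the same number shared little (correlations of their deviations 0.18, -0.06 and 0.07), and no pairing is given in the sources used here. With so few mice, and no comparison with mice of unlike number, these correlations cannot exclude a pairing. With the replicate block 6 members were called, and Nfkbib had a log2 fold change of 0.58 (edgeR adjusted p = 0.0774). In the fits without the block that left out single mice, the edgeR adjusted p of Nfkbib ranged from 0.0186 to 0.129. The ratio differences kept their sign, with ranges of 0.76 to 1.04 for Nfkbia to Rela, 1.10 to 1.42 for Bcl3 to Nfkb1, 1.14 to 1.37 for Nfkb2 to Nfkb1, 1.52 to 1.80 for Relb to Rela and 0.88 to 1.51 for Nfkbiz to Nfkbia. Such a test with a mouse left out cannot reach 0.05.

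Calls among the 16 genes of the kinase list ranged from 2 to 4 higher and 0 to 1 lower, among ubiquitin ligases and adaptors from 1 to 4 higher and 0 to 2 lower, among negative regulators from 3 to 6 higher and 0 to 1 lower, and among target genes from 11 to 22 higher and 1 to 2 lower. The 3 negative regulators and the 11 target genes called higher at the low end came with at least 10 counts required in every sample, which removes genes low in control mice.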

Other observations

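Markers of resident non-parenchymal cells were also measured, and their calls are read beside the 13.3% of all genes called higher and the 13% called lower; with so few genes the shares are not set apart from these. Of 8 sinusoidal endothelium markers 2 were called higher and 2 lower: Lyve1 and Pecam1 were higher, and Clec4g and Kdr were lower, and by mean CPM over all mice Fcgr2b was first, with Pecam1 above it in LPS mice. Of 8 stellate cell markers 3 were called lower with edgeR, namely Reln, Lrat and Ecm1, and Dcn was first by mean CPM over all mice. Of 8 T and NK cell markers 2 were tested and Cd4 was called lower. Of 4 cholangiocyte markers Sox9 was called higher and was first by mean CPM over all mice, while Krt19, Krt7 and Epcam had log2 fold changes of -1.14, -0.64 and -0.34 and were not called, and the median was -0.49. These genes are named by the marker lists, after their values were seen.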
